A study of Homo sapiens with 4 samples.

Results

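The genes of bone morphogenetic protein (BMP) signaling and the ID genes were examined in ES2 cells treated with the natural ERβ agonist liquiritigenin (Liq). The 10 genes were taken by symbol from the deposited count tables, which list 23228 genes, and all 10 were present. They are the ligand genes BMP2, BMP4 and BMP6, the antagonist genes GREM1 and NOG, the inhibitor gene SMAD6, and ID1, ID2, ID3 and ID4. ES2 is an ovarian cancer line of human origin that is widely used in culture, and Liq is a plant flavanone that the study uses as an agonist of estrogen receptor beta. Cells in phenol red-free RPMI-1640 with 5% charcoal-stripped serum received vehicle or 100 μM Liq, a dose given in the study's methods, and RNA was collected after 24 h. Each group had 2 samples from this 1 line, and the labels do not say whether the samples of a group were separate cultures, so the p-values measure the spread between these samples, which may be technical.

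BMP ligands are secreted dimers that bring type I and type II serine/threonine kinase receptors together at the cell surface. The activated receptors phosphorylate SMAD1, SMAD5 and SMAD9, which enter the nucleus with SMAD4 and switch on target genes. The ID genes and SMAD6 are classical targets of this pathway. ID proteins carry a helix-loop-helix domain without a DNA-binding region and hold basic helix-loop-helix factors, the E proteins among them, away from DNA, while SMAD6 feeds back to block the receptors and SMAD1. In the ovary, BMP ligands act on the surface epithelium and on follicle cells.

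In Liq-treated ES2 cells, ID1 and ID3 were 2.22-fold and 2.41-fold higher than in vehicle-treated cells, SMAD6 was 2.60-fold higher and BMP6 was 1.68-fold higher. BMP2 moved the other way, to 0.588 of its vehicle level. BMP4 and ID2 did not pass the test, GREM1 and NOG were close to the detection limit, and ID4 had no read in any sample. Of the 10 genes, 7 passed the filter on low counts, and 5 of these 7 changed, which here means a difference of 1.5-fold or more and an adjusted p-value below 0.05 (edgeR's quasi-likelihood test, Benjamini-Hochberg adjustment over all 13546 tested genes). With the same rule 6.45% of all tested genes changed, 4.29% upward and 2.16% downward. The median log2 fold change was 0.75 over the 7 genes and 0.01 over all tested genes. The 10 genes were chosen with earlier results of these data known, so these shares describe the list and do not test it. The Liq samples did not overlap with the vehicle samples in 6 of the 7 genes, which was also the case in 61.7% of all tested genes. The samples are bulk RNA, so a change in the share of cells that express a gene and a change in the RNA per cell cannot be told apart.

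**Figure D1:**
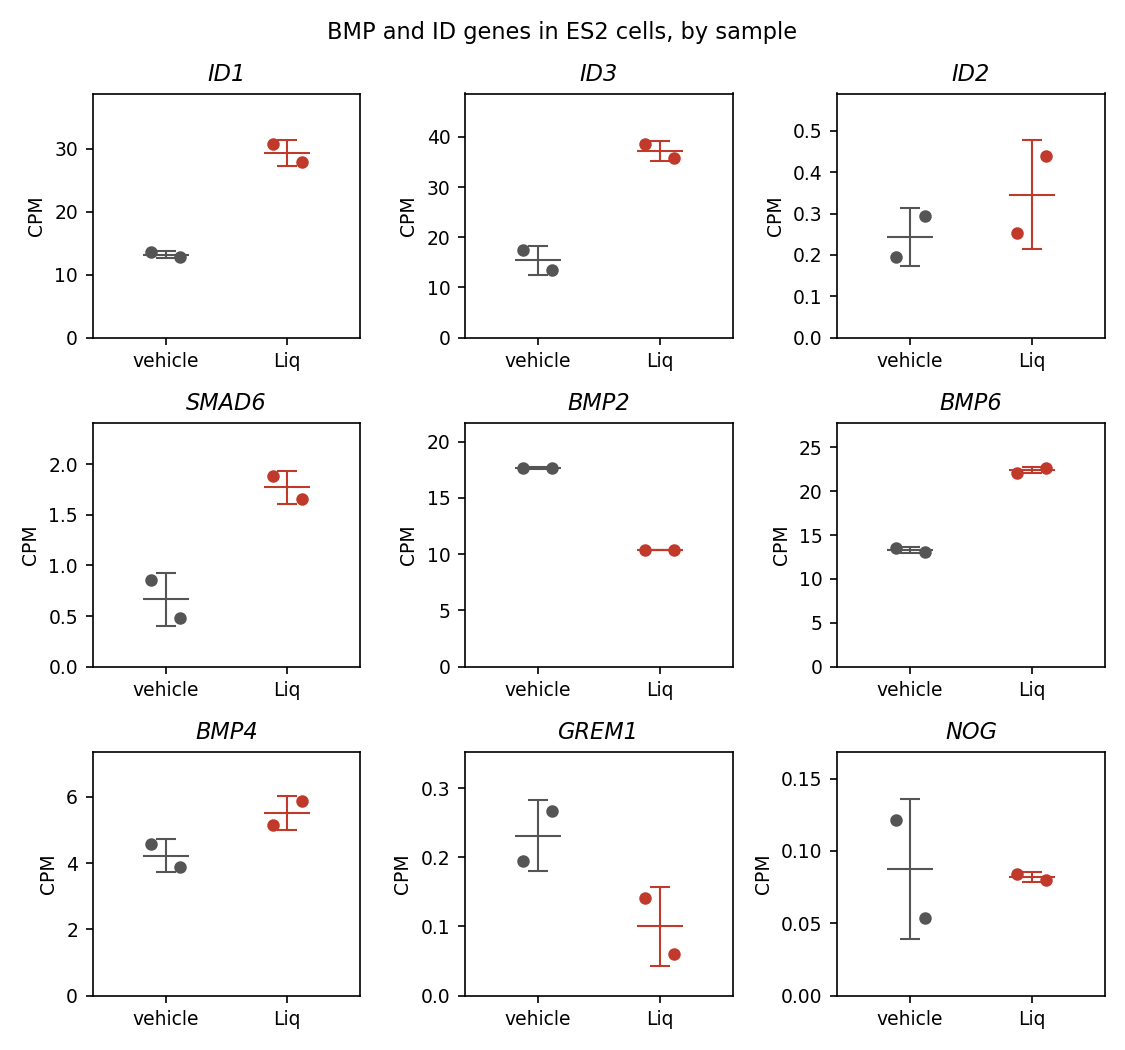
Level in CPM (counts per 1000000 counts of the TMM-normalized library, linear axes from 0) of 9 of the 10 genes in the 2 vehicle and 2 Liq samples; points are samples, and bars are the mean and SD. ID1, ID3, SMAD6 and BMP6 lie higher in each Liq sample than in either vehicle sample and BMP2 lies lower. The groups are also apart for BMP4 (higher in Liq, not called) and GREM1 (lower in Liq, not tested). The samples of ID2 and NOG overlap, and ID4 (0 counts in every sample) is not drawn.

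Between 34573053 and 48933893 reads per sample fell on genes, and 3 counts correspond to 0.0598 to 0.0844 CPM, taken here as the detection limit. Samples of a group differed by more than sampling noise (chi-square over its degrees of freedom 6.33 in vehicle, 11.1 in Liq and 58.4 to 71.4 across the groups), so no pair of samples was treated as 1 library. Of 9 markers of epithelium or ovarian carcinoma, KRT7, KRT8 and KRT18 were expressed, CDH1 had 0 counts in all samples, and EPCAM, KRT19 and MUC16 had at most 3 counts. PAX8 and WT1 were detected at low levels and were lower with Liq (-1.34 and -0.68 in log2 fold change, edgeR adjusted p = 0.00214 and 0.00285, respectively). The far more abundant KRT7 was higher by less than 1.5-fold (252 ± 20 CPM with vehicle, 357 ± 29 CPM with Liq, SD, n = 2, edgeR adjusted p = 1.08e-05), and KRT18 was lower by less than 1.5-fold (edgeR adjusted p = 0.0132). The 9 markers summed to 499 and 459 CPM in vehicle and 577 and 531 CPM in Liq. The mesenchymal markers VIM and CDH2 were expressed. VIM was lower by less than 1.5-fold (7479 ± 178 CPM with vehicle, 6176 ± 431 CPM with Liq, edgeR adjusted p = 0.00034), and CDH2 was higher by less than 1.5-fold (edgeR adjusted p = 0.0265). The 3 leukocyte markers summed to 0.0801 to 0.309 CPM, with CD3E at 0. The 3 endothelial markers summed to 53.3 and 50.8 CPM in vehicle and 48.2 and 44.7 CPM in Liq, nearly all of it CDH5, with at most 10 counts of PECAM1 or VWF. The 5 fibroblast markers summed to 1246 and 1164 CPM in vehicle and 1431 and 1286 CPM in Liq, nearly all of it COL1A1, with at most 1 count of DCN or LUM. PDGFRB, of the same list, was higher with Liq (log2 fold change 0.97, 50 and 40 counts against 89 and 102). The part of these markers in the results was not tested. The estrogen receptor genes were near the limit of the test. ESR1 had 22 and 17 counts in vehicle and 19 and 34 in Liq (log2 fold change 0.31, edgeR adjusted p = 0.554), and ESR2, which encodes ERβ, had 4 and 7 counts in vehicle and 5 and 14 in Liq and did not pass the filter.

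Among the ligands, BMP2 and BMP6 exchanged places. BMP2, an inducer of bone formation and of SMAD1 phosphorylation in many cell types, lies on chromosome 20 from 6748333 to 6760893 (GRCh37, plus strand). It was measured at 17.7 and 17.6 CPM in the vehicle samples and at 10.4 CPM in both Liq samples. The groups were separated by far more than the difference between samples of a group, and the log2 fold change was -0.77 (SE 0.10, 95% interval -0.98 to -0.55, edgeR adjusted p = 3.99e-06). BMP6, which belongs to another branch of the family and is best known as the signal that induces hepcidin in the liver, lies on chromosome 6 from 7726332 to 7881961. Its levels were 13.5 and 13.0 CPM with vehicle and 22.1 and 22.6 CPM with Liq, again without overlap. The log2 fold change was 0.75 (SE 0.10, 95% interval 0.55 to 0.96, edgeR adjusted p = 2.74e-06). The exons of BMP6 share 212 of 3784 bases with TXNDC5 on the opposite strand. TXNDC5 was measured at 0.401 to 0.759 CPM, with a log2 fold change of 0.26 (edgeR adjusted p = 0.635). GENCODE also places BLOC1S5-TXNDC5 over BMP6 on the opposite strand, and the count tables do not list this symbol. The part of reads from either gene in the BMP6 counts was not tested.

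BMP4, a close relative of BMP2 on chromosome 14 from 54416454 to 54425479 (minus strand), was less abundant. It was measured at 4.57 and 3.87 CPM with vehicle and at 5.15 and 5.88 CPM with Liq. Both Liq samples were above both vehicle samples, but the difference missed the threshold (log2 fold change 0.39, SE 0.15, 95% interval 0.09 to 0.69, edgeR adjusted p = 0.0528). Over the processing alternatives the adjusted p-value of BMP4 ran from 0.0179 to 0.393, with a fold change under 1.5 in each.

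The ratio of 2 genes within a sample does not depend on how the libraries are scaled. The ratio of BMP6 counts to BMP2 counts was 0.752 ± 0.017 in vehicle and 2.15 ± 0.03 in Liq (SD, n = 2). Per kilobase of annotated exon, BMP2 made up 50.6% ± 1.2 of the summed level of the 3 ligands in vehicle and 27.6% ± 0.6 in Liq (SD, n = 2). BMP6 made up 35.6% ± 0.04 and 55.7% ± 0.5 of it. BMP4 made up 13.8% ± 1.2 and 16.7% ± 1.2. The summed level itself was 9.86 ± 0.27 CPM per kilobase in vehicle and 10.6 ± 0.3 CPM per kilobase in Liq. BMP2 was thus the leading ligand transcript in the vehicle samples and BMP6 in the Liq samples, while the sum differed by less than either of these ligands did. The ratios are given without a test, since an exact permutation test of 2 samples against 2 is limited to a two-sided p of 0.333.

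**Figure D2:**
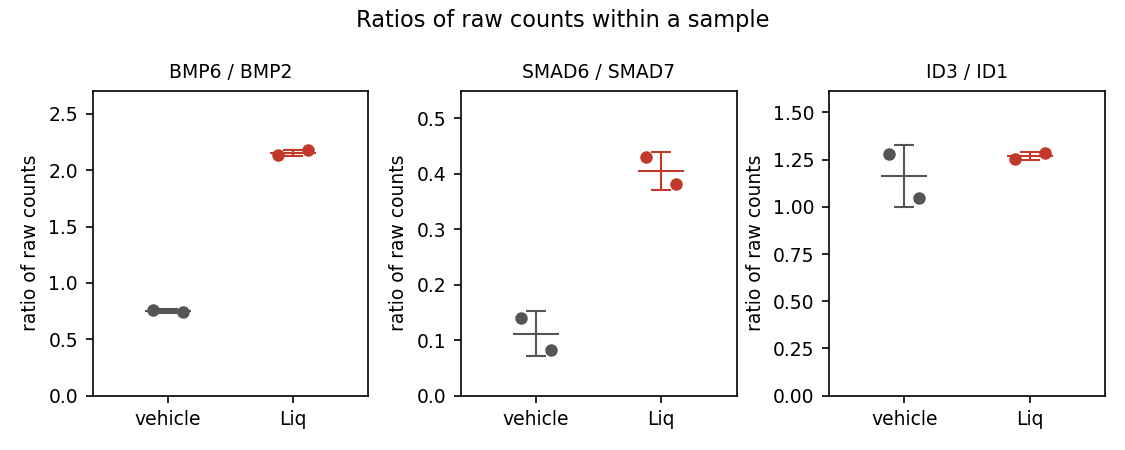
Ratios of raw counts within each sample (linear axes from 0) for BMP6 over BMP2, SMAD6 over SMAD7 and ID3 over ID1; points are samples, and bars are the mean and SD of 2 vehicle or 2 Liq samples. The BMP6 to BMP2 ratio goes from 0.752 to 2.15 and the SMAD6 to SMAD7 ratio from 0.112 to 0.405, whereas the ID3 to ID1 ratios of the groups overlap.

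The other BMP and GDF ligand genes examined were at or near the detection limit. Of the GDF genes, only GDF2, GDF5, GDF6 and GDF7 were examined. Of 11 further ligand genes, 0 passed the filter, 6 had 0 counts in every sample (BMP5, BMP7, BMP10, BMP15, GDF2 and GDF7, named after their counts were seen), and no sample had more than 11 counts of any of them. BMP8A and BMP8B are near-identical copies, so reads may be split between them or left out, and their counts are uncertain.

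GREM1 and NOG encode secreted proteins that bind BMP2 and BMP4 and keep them from their receptors. GREM1, on chromosome 15 from 33010205 to 33037307, had 8 and 10 counts with vehicle, against 5 and 3 with Liq. The summed counts, scaled to library size, gave a ratio of Liq to vehicle of 0.407 with an exact 95% interval of 0.153 to 0.984, which covers counting error only. NOG, on chromosome 17 from 54671060 to 54672972, had 5 and 2 counts with vehicle and 3 and 4 with Liq, a ratio of 0.916 (exact 95% interval 0.274 to 3.06, counting error only). Neither gene passed the filter, and a difference in NOG was not detectable at this depth. Some other extracellular antagonists and modulators were far more abundant, and 7 of 16 passed the filter without any of them changing by 1.5-fold. With 6.45% of all tested genes called changed, 0 of 7 is near that share. BMPER, which binds BMPs outside the cell and can block or enhance them, came closest, at 13.3 ± 0.6 CPM with vehicle and 8.91 ± 0.40 CPM with Liq (SD, n = 2). The log2 fold change of BMPER was -0.58 (SE 0.11, 95% interval -0.80 to -0.35, edgeR adjusted p = 0.00036). CRIM1, a transmembrane protein that binds BMPs, was at 218 ± 2 CPM with vehicle and 265 ± 3 CPM with Liq (SD, n = 2), a small difference that passed on p alone (log2 fold change 0.28, edgeR adjusted p = 0.00345). FST, which encodes the activin and BMP antagonist follistatin, had a log2 fold change of -0.15 (95% interval -0.32 to 0.01, edgeR adjusted p = 0.164).

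The receptors and the SMADs that carry the signal were expressed in both groups. Of 7 receptor genes 6 passed the filter, and 0 of these changed by 1.5-fold. Of all tested genes 6.45% were called changed, so 0 of 6 is near that share. The type II receptor gene ACVR2A was at 6.30 ± 0.27 CPM with vehicle and 8.32 ± 0.16 CPM with Liq (SD, n = 2), with a log2 fold change of 0.40 (edgeR adjusted p = 0.0185). The type I receptor gene BMPR1B had a log2 fold change of -0.48 (95% interval -0.84 to -0.11, edgeR adjusted p = 0.0512) and BMPR1A one of 0.19 (95% interval -0.03 to 0.40). Among the co-receptors, ENG (endoglin) and RGMB were lower by less than 1.5-fold (-0.32 and -0.31 in log2 fold change, edgeR adjusted p = 0.00218 and 0.00226, respectively), and NEO1, the receptor partner of RGM proteins, had a log2 fold change of 0.18 (edgeR adjusted p = 0.13). SMAD1, SMAD4, SMAD5 and SMAD9 all passed the filter, and their log2 fold changes ran from -0.06 to 0.19 with adjusted p-values from 0.212 to 0.715 (edgeR). The widest of their 95% intervals reached from -0.03 to 0.42, for SMAD9, so a change of 1.5-fold lay outside the interval of each of the 4 genes.

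SMAD6 and SMAD7 are the inhibitory SMADs, of which SMAD6 acts mainly on BMP signals and SMAD7 on both BMP and TGF-β signals. SMAD6, on chromosome 15 from 66994574 to 67075187 (GRCh37, plus strand), had 35 and 18 counts with vehicle, against 67 and 83 with Liq. These counts correspond to 0.851 and 0.481 CPM with vehicle and 1.88 and 1.65 CPM with Liq, so the vehicle samples differed from each other by more than the Liq samples did, but the groups did not overlap. The log2 fold change was 1.38 (SE 0.27, 95% interval 0.82 to 1.94, edgeR adjusted p = 0.000509). Without vehicle replicate 1 the log2 fold change was 1.86 and without vehicle replicate 2 it was 1.04, with adjusted p-values of at most 0.0221. SMAD7 was at 5.93 ± 0.18 CPM with vehicle and 4.37 ± 0.03 CPM with Liq (SD, n = 2). This difference in SMAD7 was under 1.5-fold (log2 fold change -0.44, SE 0.14, edgeR adjusted p = 0.02). GENCODE places an unnamed lncRNA over SMAD6 on the same strand, which the count tables do not list, so reads from it could be counted with SMAD6. The SMAD6 count was 0.141 and 0.083 of the SMAD7 count in the vehicle samples and 0.429 and 0.381 of it in the Liq samples, without overlap.

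All 8 other intracellular inhibitors passed the filter and 0 changed by 1.5-fold, which is near the share of 6.45% called changed over all tested genes. BAMBI, a pseudoreceptor that lacks the kinase domain, was just under that size, at 6.24 ± 0.67 CPM with vehicle and 9.33 ± 0.16 CPM with Liq (SD, n = 2). Its log2 fold change was 0.58 (95% interval 0.32 to 0.83, SE 0.12, edgeR adjusted p = 0.00118). SKIL, a SMAD corepressor, and SMURF2, a ubiquitin ligase for receptors and SMADs that was named after its values were seen, were lower by less than 1.5-fold (-0.35 and -0.20 in log2 fold change, edgeR adjusted p = 0.012 and 0.021, respectively).

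The ID genes differed widely in level. ID1 lies on chromosome 20 from 30193086 to 30194318 (GRCh37, plus strand) and encodes the inhibitor best known from endothelial and stem cells. ID1 had 558 and 480 counts with vehicle, against 1095 and 1398 with Liq. After normalization these were 13.6 and 12.8 CPM with vehicle and 30.8 and 27.9 CPM with Liq. Both Liq samples lay at more than 2 times either vehicle sample, and the log2 fold change was 1.15 (SE 0.10, 95% interval 0.94 to 1.35, edgeR adjusted p = 2.02e-09). ID3, on chromosome 1 from 23884417 to 23885992 (minus strand), encodes a close relative with which ID1 is often expressed. It was measured at 17.4 and 13.4 CPM with vehicle and at 38.6 and 35.8 CPM with Liq. The vehicle samples of ID3 were farther apart than those of ID1, and the groups were again separate, with a log2 fold change of 1.27 (SE 0.11, 95% interval 1.05 to 1.49, edgeR adjusted p = 1.33e-09). By p-value ID3 was 57th and ID1 68th among the 13546 tested genes. The ID3 count was 1.28 and 1.05 times the ID1 count in vehicle and 1.25 and 1.29 times in Liq, so the samples of the groups overlapped in this ratio.

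ID2, on chromosome 2 from 8818975 to 8824591, had 8 and 11 counts with vehicle and 9 and 22 with Liq. Its log2 fold change of 0.56 had a 95% interval of -0.41 to 1.54 (edgeR adjusted p = 0.418), so a change of the size seen in ID1 could not be told from none at this depth. ID4, on chromosome 6 from 19837601 to 19842428, had 0 counts in the 4 samples, which allows a level of up to 0.0598 to 0.0844 CPM per sample. Per kilobase of annotated exon, ID1 and ID3 together made up 99.3% to 99.8% of the level of the 4 ID genes in every sample. Their summed level was 22.6 and 19.4 CPM per kilobase in vehicle and 50.8 and 46.5 CPM per kilobase in Liq.

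**Figure D3:**
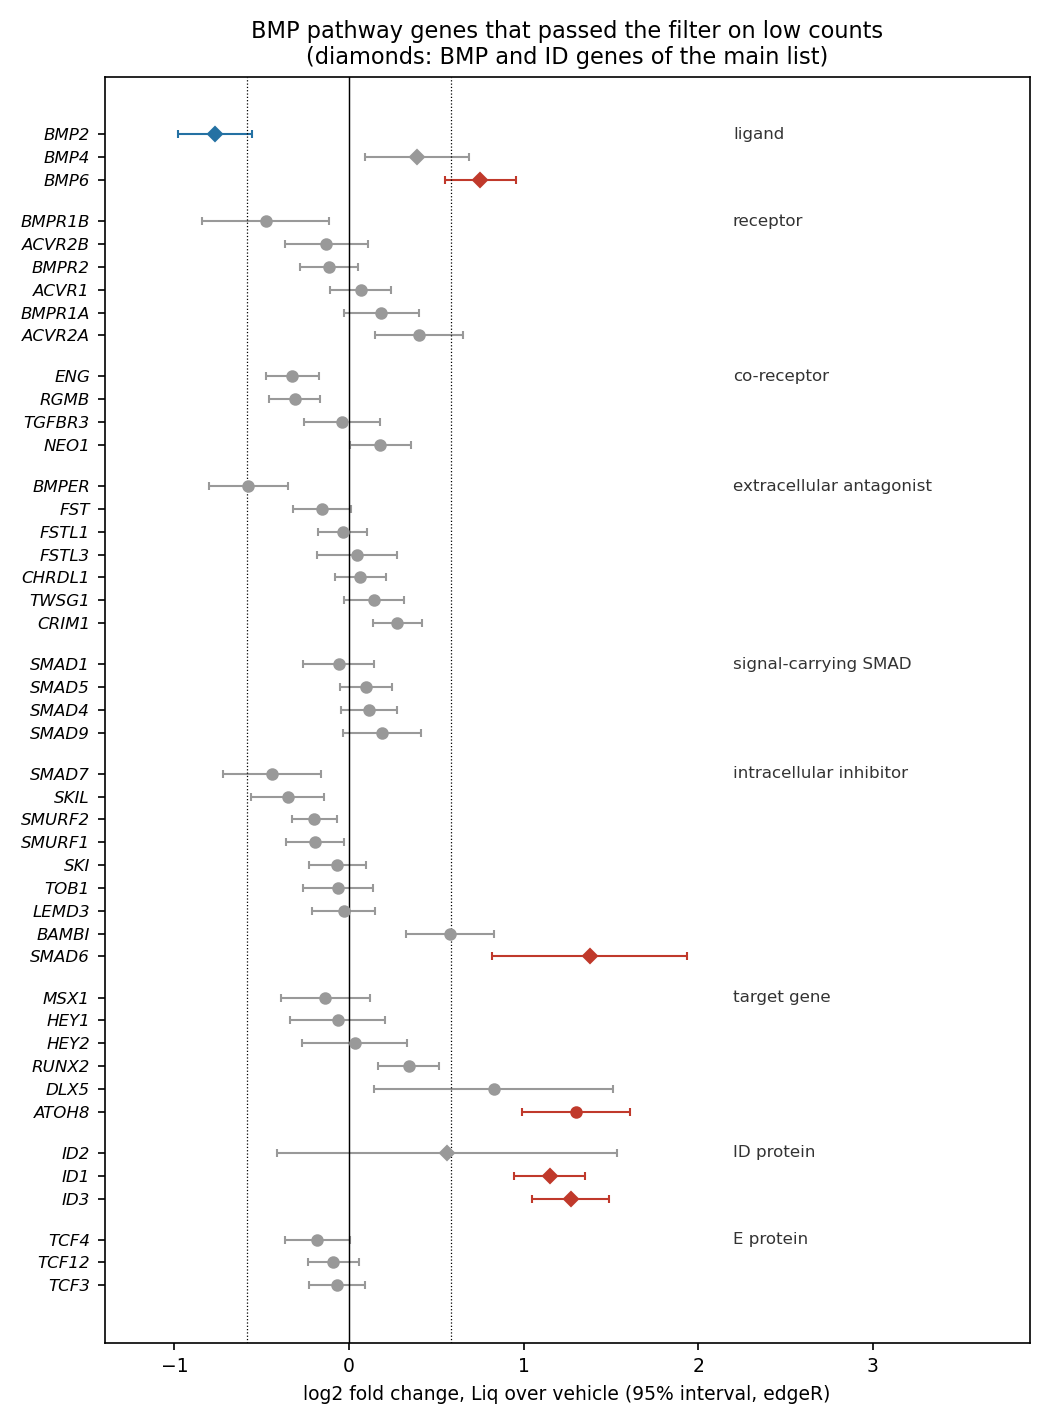
Log2 fold change of Liq over vehicle with its 95% interval (edgeR, n = 2 per group) for the 45 genes of both lists that passed the filter, grouped by role; diamonds are genes of the main list, colour marks genes called changed (red higher, blue lower), and dotted lines mark 1.5-fold. ID1, ID3, SMAD6, BMP6 and ATOH8 lie to the right of the upper line and BMP2 to the left of the lower one, while the receptors, the signal-carrying SMADs and the E proteins lie between the lines; DLX5 lies to the right but was not called.

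Among 9 other target genes of the pathway, 6 passed the filter and 1 of these changed, against 6.45% of all tested genes. The gene that changed was ATOH8, a basic helix-loop-helix transcription factor gene that responds to BMP signals in endothelial and liver cells. It was measured at 2.75 and 2.40 CPM with vehicle and at 6.38 and 6.34 CPM with Liq, a log2 fold change of 1.30 (SE 0.15, 95% interval 0.99 to 1.61, edgeR adjusted p = 3.76e-07). Both Liq samples were far above both vehicle samples, and the size of the difference was close to that of ID1 and ID3. RUNX2, a transcription factor gene of bone-forming cells, was higher by less than 1.5-fold (log2 fold change 0.34, edgeR adjusted p = 0.00466). DLX5, another gene of bone formation, had 16 and 19 counts with vehicle and 30 and 38 with Liq, and its log2 fold change of 0.83 did not pass the threshold (SE 0.33, edgeR adjusted p = 0.0712). The remaining tested target genes HEY1, HEY2 and MSX1 were named after their values were seen. Their log2 fold changes were -0.06, 0.03 and -0.13 (edgeR adjusted p = 0.766, 0.898 and 0.466, respectively). The E protein genes TCF3, TCF4 and TCF12, whose products are bound by ID proteins, had differences of -0.07, -0.18 and -0.09 in log2 fold change (edgeR adjusted p = 0.555, 0.15 and 0.4, respectively).

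In all, 38 of the 64 other pathway genes passed the filter and 1 of these changed, or 2.63%, against 6.45% of all tested genes. At an adjusted p-value under 0.05 without regard to size, 5 were higher and 6 were lower, or 28.9% of the 38, against 24% of all tested genes (12.6% higher and 11.3% lower). The second share was near that of all tested genes. The first share depended on the processing: with offsets that follow the expression level 7.89% of the other pathway genes were called, against 5.52% of all tested genes, and without Liq replicate 1 these shares were 7.69% and 5.95%. Of the 11 genes that passed on the adjusted p-value, 3 (ATOH8, BMPER and BAMBI) did so in each of 10 alternatives, and the other 8 missed it in 1 to 4 of them. SMURF2 and ACVR2A missed it with offsets that follow the expression level (adjusted p = 0.202 and 0.0844), ACVR2A and SMAD7 with the DESeq2 Wald test (adjusted p = 0.0944 and 0.11), and SMAD7, SKIL, SMURF2, ACVR2A, ENG, RGMB, CRIM1 and RUNX2 in at least 1 edgeR fit without 1 sample. Over the 38 tested other pathway genes, the median log2 fold change was -0.05. Of the 10 genes of the main list, the same 5 passed under either rule, and also at 1.5-fold with an unadjusted p-value under 0.05, which 7.85% of all tested genes passed.

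**Figure D4:**
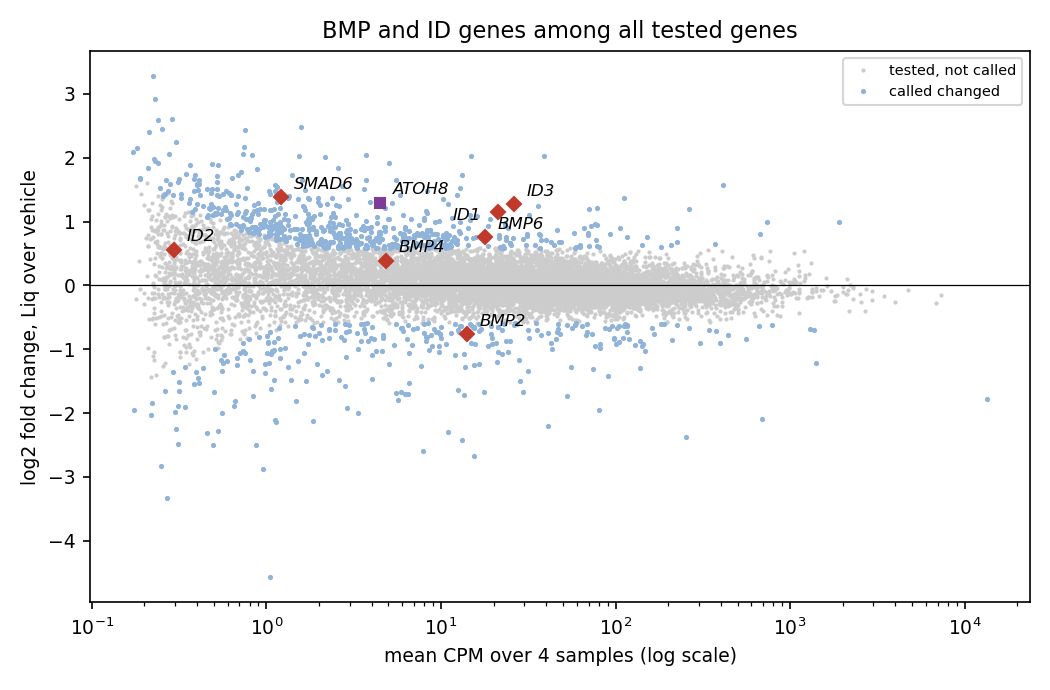
Log2 fold change of Liq over vehicle against mean CPM over the 4 samples (log scale) for the 13546 tested genes, grey where not called and blue where called changed. The 7 tested BMP and ID genes (red diamonds) and ATOH8 (purple square) are labelled; ID1, ID3 and BMP6 lie above most genes of their level, BMP2 lies below, and BMP4 and ID2 lie among the genes that were not called.

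The genes can be ranked by level per kilobase of annotated exon. In vehicle, ID1 (10.7 ± 0.4 CPM per kilobase) and ID3 (10.3 ± 1.9) did not differ beyond their spread (SD, n = 2). They were followed by BMP2 at 4.98 ± 0.02, BMP6 at 3.51 ± 0.09 and BMP4 at 1.36 ± 0.16 CPM per kilobase. Next came ID2 (0.11 ± 0.03), SMAD6 (0.078 ± 0.031) and NOG (0.046 ± 0.025), of which neighbours overlapped, and GREM1 was at 0.016 ± 0.003 CPM per kilobase. In Liq, ID3 (24.9 ± 1.3 CPM per kilobase) and ID1 (23.8 ± 1.7) again did not differ beyond their spread, and BMP6 (5.91 ± 0.09) came before BMP2 (2.93 ± 0.005) and BMP4 (1.78 ± 0.17). SMAD6 (0.207 ± 0.019 CPM per kilobase) and ID2 (0.156 ± 0.059) overlapped in Liq, followed by NOG (0.043 ± 0.002) and GREM1 (0.0068 ± 0.0039). The order depends on the length used. Over the canonical transcripts, which are shorter than the exon union for ID1, ID3, BMP4, ID2, SMAD6 and GREM1, ID3 was above ID1 in vehicle (18.3 and 14.1 against 13.8 and 13.0 CPM per kilobase) and in Liq (40.7 and 37.7 against 31.3 and 28.3 CPM per kilobase). BMP4 in Liq then overlapped with BMP2 (2.66 and 3.04 against 2.93 in both samples), and SMAD6 in Liq was above ID2 (0.492 and 0.432 against 0.195 and 0.337).

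The promoters of the 4 genes that were higher with Liq are shown because these genes share a direction. RefSeq promoter sequences (table build GRCh38.p14) were found for 8 of the 10 genes, and the 250 bases before the start of each gene were matched exactly to GRCh37. The windows are chr20:30192842-30193091 for ID1 (plus strand), chr1:23885993-23886242 for ID3 (minus strand), chr15:66994324-66994573 for SMAD6 (plus strand) and chr6:7726082-7726331 for BMP6 (plus strand). Capitals mark matches on either strand to GGCGCC, a core of BMP response elements, to GTCTG, which holds the SMAD box, and to TGACG, the half-site of cyclic AMP response elements. The last 6 bases of the ID1 window lie in an annotated UTR.
ID1: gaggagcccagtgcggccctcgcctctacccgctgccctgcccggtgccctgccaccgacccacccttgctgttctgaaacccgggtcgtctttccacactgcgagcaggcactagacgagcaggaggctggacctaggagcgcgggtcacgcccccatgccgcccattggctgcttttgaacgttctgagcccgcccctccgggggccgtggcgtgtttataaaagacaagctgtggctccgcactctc
ID3: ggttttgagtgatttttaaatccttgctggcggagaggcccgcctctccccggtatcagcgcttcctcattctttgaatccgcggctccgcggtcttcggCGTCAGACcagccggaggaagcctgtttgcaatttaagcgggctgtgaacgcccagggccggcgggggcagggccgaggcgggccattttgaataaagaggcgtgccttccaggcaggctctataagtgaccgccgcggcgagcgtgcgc
SMAD6: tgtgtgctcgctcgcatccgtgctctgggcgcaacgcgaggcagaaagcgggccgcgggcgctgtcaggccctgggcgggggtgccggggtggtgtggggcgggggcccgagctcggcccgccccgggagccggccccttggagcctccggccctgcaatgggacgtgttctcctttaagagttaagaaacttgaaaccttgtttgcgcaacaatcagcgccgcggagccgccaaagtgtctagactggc
BMP6: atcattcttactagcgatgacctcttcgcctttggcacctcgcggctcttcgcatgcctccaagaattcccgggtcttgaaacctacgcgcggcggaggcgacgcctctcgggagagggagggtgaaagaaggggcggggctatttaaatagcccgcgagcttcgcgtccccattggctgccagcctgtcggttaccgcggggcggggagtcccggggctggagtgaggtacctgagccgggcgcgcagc
Among these 4 windows, only that of ID3 held a match. It held TGACG on the other strand at bases -150 to -146 from the start and GTCTG on the other strand at bases -147 to -143, so that the matches overlap by 2 bases. Of 35116 promoter windows of the same length in the table, 16.4% held GGCGCC, 38.0% held GTCTG and 21.2% held TGACG. The windows of the 4 genes had a GC content of 62% to 68%, against a median of 58% over all promoters. Matches also occurred in windows of genes of the list that were not called higher. Both GGCGCC and GTCTG occurred in windows of GREM1 and BMP4, GTCTG occurred in that of ID4, and that of ID2 held no match. The absence of a match says only that these letters do not occur in the window. GTCTG is longer than the SMAD box GTCT, which occurs in each of the 4 windows as printed and was not marked by itself.

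**Figure D5:**
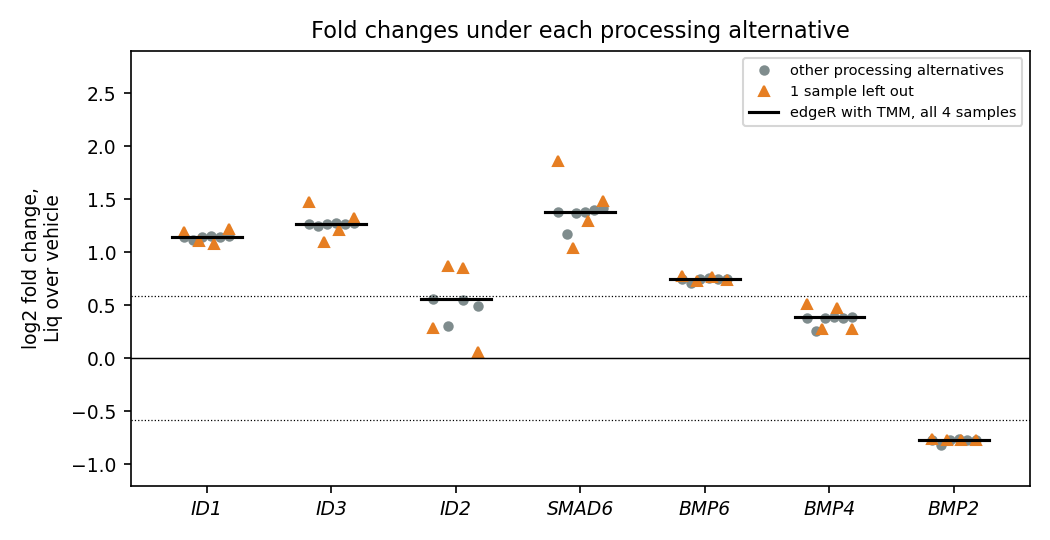
Log2 fold change of Liq over vehicle for the 7 tested genes under each processing alternative; the black line is edgeR with TMM on all 4 samples, triangles leave out 1 sample, circles are the other alternatives, and dotted lines mark 1.5-fold. Every point of ID1, ID3, SMAD6 and BMP6 lies above the upper dotted line and every point of BMP2 below the lower one, while SMAD6 runs from 1.04 to 1.86 and ID2 from 0.06 to 0.87.

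The direction and the call of the 7 genes were the same under each alternative that could test them. The log2 fold change ran from 1.08 to 1.22 for ID1, from 1.10 to 1.47 for ID3, from 0.71 to 0.78 for BMP6 and from -0.82 to -0.76 for BMP2. With offsets that follow the expression level, 47.3% of all called genes were higher with Liq, against 66.5% with TMM. The same 5 genes of the list were called under both scalings.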

How the data were processed

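RNA-seq counts of ES2 cells treated with vehicle or Liq for 24 h were used, with 2 samples per group assigned by the sample labels. Per the labels, the authors processed reads with bcl2fastq 2.17.1.14, aligned them to hg19 (GRCh37) with TopHat2 2.0.8b and counted them per gene with HTSeq. The deposited values are raw counts per gene symbol, and the strand setting of the counting is not given in the sources used here. GENCODE places lncRNAs on the opposite strand over BMP4, GREM1, ID2 and ID4, and the count tables do not list them. The part of their reads in the counts of these genes was not tested. HTSeq leaves out reads that align to several places, and their tally line made up 35.6% to 36.2% of all entries tallied. Whether such a read was tallied once or once per alignment is not given, so this need not be the share of reads. The tally lines of HTSeq were left out of library sizes and tests.

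The analysis used edgeR 4.0.16 in R 4.3.3. The filter (filterByExpr, minimum count 10, minimum total 15) kept 13546 of 23228 genes. After TMM scaling, the effect of Liq was tested with glmQLFit and glmQLFTest, and the fit held no replicate block. The SE is the size of the log2 fold change divided by the square root of F. A gene was called changed when it differed by 1.5-fold or more and its adjusted p was under 0.05. The study's methods state 1.5-fold with p under 0.05 without saying whether p was adjusted.

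The 10 genes and the list of 64 other pathway genes were chosen with earlier results of these data known. Of the other genes, those called, up to 3 per role with the smallest p and the E proteins are named. A few cell type markers are not reported here. Exon lengths and coordinates are from GENCODE on GRCh37, which may differ from the annotation used for counting. The fits were first tested on simulated counts. Alternatives were RLE size factors, loess offsets (span 0.3), other filters, the DESeq2 1.42.0 Wald test, the replicate block, leaving out each sample, and other call rules.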

Additional observations from a re-analysis of the deposited data

How the results depend on the processing

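The 7 tested BMP and ID genes kept their direction and their call in 68 of 68 combinations of gene and alternative, with 5 genes called (4 higher and 1 lower) throughout, also when any 1 of the 4 samples was left out and under the unadjusted p-value. ID2 was not tested where 10 counts were required in every sample, and DESeq2 gave it no adjusted p-value. Of the other pathway genes, 1 was called. The number was 3 with loess offsets (2 of them lower), 2 with the unadjusted p-value (both higher) and 11 with no fold threshold (5 higher and 6 lower), and it ran from 1 to 3 without 1 sample (1 to 2 higher, 0 to 1 lower). The genes added were BMPR1B (log2 fold change -0.64) and BMPER (-0.65) with loess offsets, BMPER without vehicle replicate 2 (-0.62) or Liq replicate 1 (-0.62), BAMBI without vehicle replicate 1 (0.69) or Liq replicate 1 (0.59), and DLX5 (0.83) with the unadjusted p-value. The cause was not tested.

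Over all tested genes, 874 were called (581 higher and 293 lower). The DESeq2 Wald test called 566 (339 higher), loess offsets called 354 higher, and without a fold threshold 3245 were called (1712 higher and 1533 lower). Without 1 sample the number ran from 659 to 979 (423 to 695 higher, 236 to 312 lower). A total of 8 other pathway genes that were not called reversed their sign, each to a log2 fold change of 0.10 or less in size. With loess offsets FSTL1 was at 0.045, FSTL3 at -0.023 and HEY2 at -0.10. Over the fits without 1 sample, the log2 fold change ran from -0.092 to 0.013 for TGFBR3, from -0.084 to 0.0091 for FSTL1, from -0.053 to 0.15 for FSTL3, from -0.15 to 0.015 for SKI, from -0.13 to 0.056 for LEMD3, from -0.22 to 0.095 for HEY1, from -0.078 to 0.16 for HEY2 and from -0.15 to 0.011 for TCF3. In fits that leave 1 sample in a group, that sample is assumed to vary like the others.

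With the replicate number as a block, 898 genes were called and the same 5 genes of the list among them. Samples with the same number had a correlation of 0.048 between their deviations from the group means, so the numbers were not taken to pair the samples. Over the whole 300-base promoter windows, 19.2% held GGCGCC, 45.3% GTCTG and 24.6% TGACG. Depth limits statements on GREM1, NOG, ID2 and ID4.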

Other observations

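A few low-count genes of the pathway, named after their values were seen, were not tested. BMP3, which encodes a ligand that opposes other BMPs, had 4 and 6 counts with vehicle, against 9 and 11 with Liq. KCP, which encodes a secreted BMP modulator, had 2 and 1 counts with vehicle and 6 in each Liq sample. ACVRL1, which encodes a type I receptor of endothelial cells, had 0 and 10 counts with vehicle, against 7 in each Liq sample, so that its vehicle samples lay on either side of the Liq samples.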
